A study of Mus musculus with 38 samples.

Results

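The mouse glioma line GL261 was grown together with BV2 cells or alone, both at 21% oxygen (normoxia), and its poly(A) RNA was sequenced. The labels assign 2 GL261 libraries to the co-culture and 2 to the monoculture, so 4 of the 38 libraries of the series enter the comparison. Of the 55487 genes in the count table, 15189 had enough reads to be tested. Genes whose mean level in normoxic BV2 monoculture was at least 4-fold that in normoxic GL261 monoculture were set apart as BV2-high, because reads from stray BV2 cells would show in them first. This left 14403 genes, which are described first, and 786 BV2-high genes, which are described at the end.

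GL261 cells are a murine glioma line, here stably expressing the green fluorescent protein plasmid pEGFP-N1, and BV2 cells are an immortalised microglial line. For the co-culture, GL261 cells were seeded with 10% serum. After 24 h they were moved to BV2 medium with 2% serum, and another 24 h later 1 BV2 cell was added per 2 GL261 cells for 16 h of direct contact. Monocultures served as controls, but the labels give neither their medium nor their cell density. How the co-cultured cells were separated, and whether monocultures were handled alike, is not given either. The presence of BV2 cells, the medium change, the density and the handling therefore cannot be told apart. The same 2 arms also exist below 0.1% oxygen (hypoxia), and the BV2 cells of the same experiment were sequenced too. The labels call the 2 libraries of a group biological replicates without saying whether they came from separate cultures, so p-values measure the spread between these libraries.

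Microglia and macrophages are the main immune cells of gliomas, and tumour cells respond to the cytokines they release. Type I interferons act through the kinases Jak1 and Tyk2 and a transcription factor complex that holds Stat2 and Irf9 and binds DNA at interferon-stimulated response elements (ISRE) to turn on antiviral effector genes. Cytokines of the interleukin-6 family act through Stat3, which turns on acute phase genes and Socs3, its own feedback inhibitor.

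Library totals were 17638000 to 19358000 counts in monoculture and 15411000 to 16202000 in co-culture, so that 3 counts, the lowest level told from 0, corresponded to at most 0.195 CPM. CPM is a gene's count per 1000000 counts of its library. These floors cover counting error only. Levels of GL261 genes are given as CPM scaled by trimmed-mean (TMM) factors. The summed plain CPM of 18 GL261 markers was 10441 to 11005 in monoculture and 10712 to 10850 in co-culture. The sum over 38 microglia and macrophage markers was 65.3 to 67.8 in monoculture, 102 to 145 in co-culture and 7392 to 7470 in BV2 monoculture. The defining markers varied in how many were at 0 counts: 14 to 19 of the 38 in the monoculture libraries and 6 to 7 in the co-culture libraries. Over 121 genes specific to BV2 cells, the median level in co-cultured GL261 was 0.915% of that in BV2 monoculture in replicate 1 and 0.630% in replicate 2. In monocultured GL261 it was 0.0469% and 0.0615%. The 121 genes were chosen as low in these same monoculture libraries, so a low value there was set in advance. This share of BV2 transcripts is set beside the results below.

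Co-culture with BV2 cells changed a small set of GL261 genes, with Serpina3n and interferon-induced genes among those that rose and a mixed set that fell. Over all 15189 genes tested, 78 passed an adjusted p of 0.05 by the quasi-likelihood F test of edgeR, or 0.514%, with 49 higher, or 0.323%, and 29 lower, or 0.191%. Of the 14403 genes that were not BV2-high, 13 rose, or 0.0903%, and 28 fell, or 0.194%. The rises ran from 1.71-fold to 3.65-fold and the falls from 0.65 to 2.06 on the log2 scale. In each of these 41 genes both co-culture libraries lay on one side of both monoculture libraries. That separation alone was common, with 20.9% of the 14403 genes fully higher and 22.1% fully lower. The p-values were adjusted over all 15189 genes together, BV2-high genes included. With the BV2-high genes removed before the fit, 6 of the 13 rises and 7 of the 28 falls passed in edgeR. The log2 changes of the 41 genes were then 0.990 to 1.01 times those of the main fit. The calls rested on having every library. Of the 13 rises and 28 falls, 2 and 4 passed without monoculture replicate 1, and 0 and 0 without monoculture replicate 2. Without co-culture replicate 1 the counts were 1 and 0, and without co-culture replicate 2 they were 1 and 1. All 41 genes kept their direction in these 4 fits. In bulk libraries, a change in the number of cells that express a gene and a change in RNA per cell cannot be told apart.

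**Figure D1:**
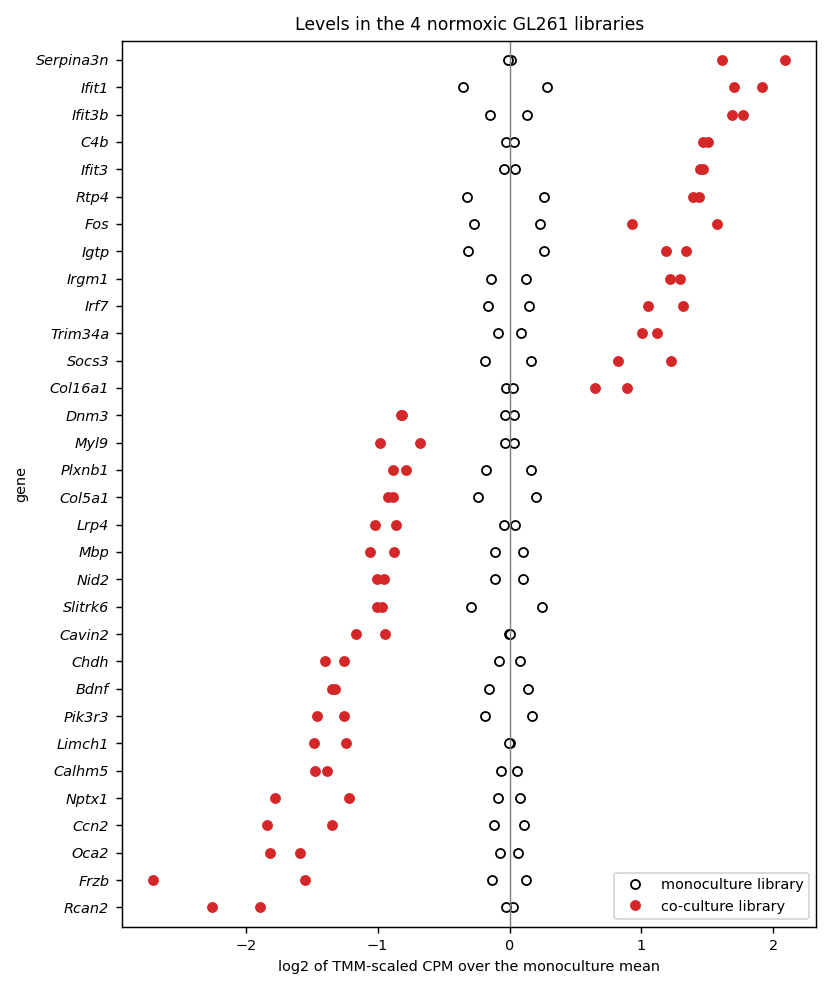
Levels of the 13 genes that rose and of 19 of the 20 genes with the largest falls among genes that were not BV2-high, in the 4 normoxic GL261 libraries. The x axis is the log2 of the TMM-scaled CPM over the monoculture mean, open points are monoculture libraries and filled points co-culture libraries. The open and filled points of a gene do not overlap, from Serpina3n, whose log2 change was 1.87, down to Rcan2, whose log2 change was -2.06.

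Of the 13 rises, 7 are on the lists of interferon-stimulated effectors and interferon pathway genes given below. Ifit1, which binds viral RNA with an unfinished cap, was at 14.7 and 9.44 CPM in the monoculture libraries and at 39.3 and 45.5 CPM in the co-culture libraries. Its log2 change was 1.81 ± 0.30 (SE), with an adjusted p of 0.0276 in edgeR. Ifit3, of the same antiviral family, was at 12.5 and 11.8 CPM in monoculture and at 33.0 and 33.6 CPM in co-culture, with a log2 change of 1.45 ± 0.17 (edgeR adjusted p = 0.00704). The monoculture libraries of Ifit1 differed by more than those of Ifit3, and in both genes the arms were far apart. Its close copy Ifit3b went from 4.86 and 4.002 CPM to 15.1 and 14.2 CPM, a log2 change of 1.73 ± 0.25 (edgeR adjusted p = 0.0146). In the GENCODE M21 annotation, 41.1% of the 75-base words of Ifit3 also occur in another gene, mostly Ifit3b, so reads may be split between the pair and their separate values are uncertain.

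The 3 Ifit genes lie close together on chromosome 19 of GRCm38, and their upstream sequences are shown because the same motif stands in each. RefSeq start sites on that build were available for 11 of the 13 genes that rose. In the 250 bases before the start, the ISRE core, here GAAA followed after any 2 bases by a further GAAA, searched on both strands, was found in 5 of these 11 genes (Ifit1, Ifit3, Ifit3b, Igtp and Irgm1). The same core was found in 1 of 22 falls with a start site (Bdnf) and in 3.46% of 27025 genes with such a window. Each line below runs 5′ to 3′ along the plus strand, with the matched letters in capitals. Where the capitals read TTTC at both ends, the match is on the minus strand. The windows are chr19:34640765-34640833 for Ifit1, chr19:34583353-34583436 for Ifit3, chr19:34607749-34607832 for Ifit3b and chr11:58199502-58199551 for Igtp.
Ifit1: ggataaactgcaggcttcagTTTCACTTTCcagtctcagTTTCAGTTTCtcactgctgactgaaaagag
Ifit3: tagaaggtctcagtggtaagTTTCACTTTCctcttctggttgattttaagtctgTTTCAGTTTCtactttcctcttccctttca
Ifit3b: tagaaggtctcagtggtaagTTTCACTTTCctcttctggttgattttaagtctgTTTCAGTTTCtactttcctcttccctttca
Igtp: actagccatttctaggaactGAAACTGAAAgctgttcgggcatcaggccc
The windows of Ifit3 and Ifit3b were identical over all 84 bases. A match describes the letters only, and binding at these places was not measured here.

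Irgm1 and Igtp, immunity-related GTPases that act on the vacuoles of intracellular pathogens, both rose. Irgm1 was at 121 and 100 CPM in monoculture and at 271 and 257 CPM in co-culture, a log2 change of 1.26 ± 0.18 (edgeR adjusted p = 0.0148). Igtp was at 34.5 and 23.1 CPM in monoculture and at 72.9 and 65.6 CPM in co-culture, a log2 change of 1.27 ± 0.23 (edgeR adjusted p = 0.0387). Rtp4, an interferon-induced chaperone for receptor transport, was at 18.3 and 12.2 CPM in monoculture and at 41.3 and 40.04 CPM in co-culture. Its log2 change was 1.42 ± 0.22 (edgeR adjusted p = 0.0192). The annotated model Gm45338 overlaps 13.9% of the exonic bases of Rtp4 on the same strand, so its level is uncertain. Irf7, the transcription factor that amplifies interferon production, was at 19.5 and 15.8 CPM in monoculture and at 44.0 and 36.7 CPM in co-culture, a log2 change of 1.19 ± 0.22 (edgeR adjusted p = 0.0395). In all 4 genes the lower co-culture library lay well above the higher monoculture library. Trim34a, of the antiviral TRIM family, was at 13.7 and 12.2 CPM in monoculture and at 28.0 and 26.0 CPM in co-culture, a log2 change of 1.06 ± 0.18 (edgeR adjusted p = 0.0270). It shares 29.5% of its words, mostly with Trim34b, so that the level of each copy is uncertain. An annotated antisense transcript overlaps 23.5% of the exonic bases of Trim34a. Of the other tested GTPases of that family, named after their values were seen, Irgm2 was at 0.94 ± 0.23 (edgeR adjusted p = 0.151) and Iigp1 at 0.79 ± 0.43 (edgeR adjusted p = 0.661).

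A list of 42 interferon-stimulated effector genes moved largely as a block, although most members did not pass the test one by one. Of its 38 tested members that were not BV2-high, 6 rose (Ifit1, Ifit3, Ifit3b, Rtp4, Igtp and Irgm1) and 0 fell at an adjusted p below 0.05 in edgeR. An unadjusted p below 0.05 with a higher level was reached by 30 of the 38, against 3.18% of all genes that were not BV2-high. The median log2 change over the list was 1.09, against -0.01 over all such genes, and 36 of the 38 had a positive value, against 48.7%. Among the members with the highest levels, Bst2, which tethers budding virus to the cell surface, averaged 157 CPM in monoculture and 284 CPM in co-culture, a log2 difference of 0.86 ± 0.24 (edgeR adjusted p = 0.223). Ifitm3, which blocks viral entry from endosomes, averaged 122 and 257 CPM, a log2 difference of 1.07 ± 0.31 (edgeR adjusted p = 0.245). Lgals3bp, a secreted binder of galectins, averaged 169 and 248 CPM, a log2 difference of 0.55 ± 0.23 (edgeR adjusted p = 0.539). The 2 members with a negative value, named after their values were seen, were Ifi27 at -0.20 ± 0.12 and Ifit2 at -0.11 ± 0.22. Ifit2, of the same family as Ifit1, averaged 33.4 CPM in monoculture and 31.0 CPM in co-culture, and its libraries overlapped.

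The libraries of a group differed in these genes. Of the 38 effectors, 37 were higher in replicate 1 than in replicate 2 of the monoculture and 32 were higher in replicate 1 of the co-culture, against 50% and 50.9% of all genes that were not BV2-high. Relative to the monoculture mean, the median effector was at 0.19 and -0.22 in the monoculture libraries and at 1.15 and 0.87 in the co-culture libraries on the log2 scale with 0.5 CPM added. The difference between replicates was thus smaller than the difference between the arms. In hypoxia replicate 1 was higher in 34 of the 38 genes in monoculture and in 38 of 38 in co-culture. The list median was 0.85 without monoculture replicate 2 and 1.41 without monoculture replicate 1, and 0.97 and 1.23 without co-culture replicate 1 and replicate 2. Of the 6 rises, 1 (Rtp4) passed the test without monoculture replicate 1, and 0 passed when any of the other 3 libraries was left out.

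**Figure D2:**
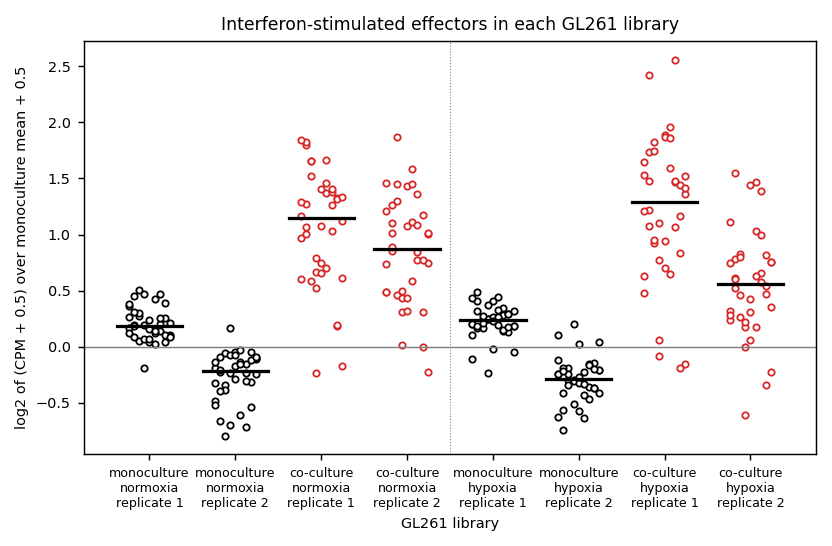
The 38 tested interferon-stimulated effectors that were not BV2-high, in each of the 8 GL261 libraries. The y axis is the log2 of the TMM-scaled CPM plus 0.5 over the monoculture mean plus 0.5 at the same oxygen level, each point is a gene and each bar a median. The medians of the normoxic co-culture libraries are 1.15 and 0.87, those of the normoxic monoculture libraries 0.19 and -0.22, and replicate 1 is the higher of each pair.

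Upstream of these effectors stand receptors, sensors and regulators. Of 20 tested receptors, sensors and regulators of the interferon pathway that were not BV2-high, 1 rose (Irf7) and 0 fell, with a median log2 change of 0.16. An unadjusted p below 0.05 with a higher level was reached by 7 of the 20, against 3.18% of all genes that were not BV2-high. The highest members were Ddx58, the sensor RIG-I, at 0.46 ± 0.17 (edgeR adjusted p = 0.463), Stat2 at 0.63 ± 0.19 (edgeR adjusted p = 0.285), Jak1 at -0.27 ± 0.21 and Irf1 at 0.03 ± 0.17. Genes of class I antigen presentation, which loads peptides for display to T cells, numbered 14 that were not BV2-high. None of them passed the edgeR test and 1 passed in DESeq2, 4 reached an unadjusted p below 0.05 with a higher level, against the same 3.18%, and the median log2 change was 0.30. That median was 0.17 without monoculture replicate 2 and 0.55 without monoculture replicate 1. Calr, Pdia3, Tapbp and Psme1, the members with the highest levels, were at 0.17 ± 0.16, -0.00 ± 0.14, 0.25 ± 0.23 and 0.21 ± 0.17.

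The gene with the largest rise was not an interferon effector. Serpina3n, a secreted serine protease inhibitor of the acute phase, was at 108 and 106 CPM in the monoculture libraries and at 455 and 327 CPM in the co-culture libraries. Its log2 change was 1.87 ± 0.20 with an adjusted p of 0.00244 in edgeR. Co-culture replicate 1 was the higher of the 2, and replicate 2 still lay far above both monoculture libraries. C4b, the complement component that forms part of the C3 convertase, was at 6.24 and 6.51 CPM in monoculture and at 18.1 and 17.6 CPM in co-culture, a log2 change of 1.49 ± 0.21 (edgeR adjusted p = 0.0119). Its neighbouring copy C4a shares most of the 22.7% of its words that are not unique. Socs3, the feedback inhibitor of Stat3 signalling, was at 22.6 and 17.7 CPM in monoculture and at 47.0 and 35.6 CPM in co-culture, a log2 change of 1.04 ± 0.17 (edgeR adjusted p = 0.0276). The GAS letters TTCNNNGAA were found before the start of Socs3 and of Igtp, 2 of 11 matched rises, of 4 of 22 matched falls (Bdnf, Chdh, Frzb and Mef2c), and in 8.13% of all genes.

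Of 14 tested acute phase and Stat3 genes that were not BV2-high, 2 rose (Serpina3n and Socs3), 0 fell and the median log2 change was 0.48. Stat3 itself averaged 89.9 CPM in monoculture and 143 CPM in co-culture, a log2 difference of 0.67 ± 0.18 (edgeR adjusted p = 0.194). Cp, which encodes the copper carrier ceruloplasmin, went the other way, from 219 to 144 CPM on average, a log2 difference of -0.60 ± 0.22 (edgeR adjusted p = 0.467). Junb, a partner of Fos, was at 0.34 ± 0.21. The list median was 0.17 without monoculture replicate 2, 0.14 without co-culture replicate 1, 0.72 without monoculture replicate 1 and 0.75 without co-culture replicate 2. Among 11 targets of NF-kappaB and 8 chemokine ligands that were not BV2-high, 0 passed the edgeR test or DESeq2 in either direction. At an unadjusted p below 0.05, 1 of the 11 NF-kappaB targets had a higher level and 0 of the 8 chemokine ligands did. The share over all genes that were not BV2-high was 3.18%.

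The remaining rises were Fos and Col16a1. Fos, an immediate early gene and part of the AP-1 factor, was at 46.7 and 65.9 CPM in monoculture and at 107 and 167 CPM in co-culture, a log2 change of 1.29 ± 0.23 (edgeR adjusted p = 0.0322). The libraries of each arm were spread, and the arms did not overlap. In BV2 cells of the same experiment Fos rose as well, by 2.25 on the log2 scale (edgeR adjusted p = 2.94e-06). It was the only gene past the threshold among 20 tested immediate early genes that were not BV2-high, whose median log2 change was 0.15 and ran from -0.03 to 0.20 with 1 library left out. The highest of them, Jund, Myc, Dusp6 and Nr4a1, were between -0.13 and 0.26. Col16a1, a fibril-associated collagen, was at 148 and 154 CPM in monoculture and at 279 and 236 CPM in co-culture, a log2 change of 0.77 ± 0.14 (edgeR adjusted p = 0.0322).

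For the 13 rises, the level that BV2 transcripts could add was computed. The share of BV2 transcripts in the co-culture libraries times the level in co-cultured BV2 cells came to at most 0.848% of the rise of any of the 13 genes. Serpina3n was at 0.0212 CPM in BV2 monoculture and 3.32 CPM in co-cultured BV2 cells, against a mean of 391 CPM in co-cultured GL261. Socs3 had the highest BV2 level relative to GL261 among the 13, with 21.0 CPM in BV2 monoculture.

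The 2 genes with the largest falls were Rcan2 and Frzb. Rcan2, an inhibitor of the phosphatase calcineurin, was at 9.57 and 9.23 CPM in monoculture and at 2.53 and 1.97 CPM in co-culture, a log2 change of -2.06 ± 0.33 (edgeR adjusted p = 0.0223). Frzb, a secreted antagonist of Wnt ligands, was at 4.35 and 3.63 CPM in monoculture and at 1.36 and 0.614 CPM in co-culture, a log2 change of -2.01 ± 0.39 (edgeR adjusted p = 0.0481). Both were expressed at low levels, and Frzb lost its call when only the 4 normoxic libraries were fitted. Ccn2, the secreted connective tissue growth factor and a standard readout of the co-activator YAP, was at 48.5 and 41.3 CPM in monoculture and at 17.7 and 12.5 CPM in co-culture. Its log2 change was -1.57 ± 0.26 (edgeR adjusted p = 0.0270). An annotated antisense transcript overlaps 23.2% of the exonic bases of Ccn2, and whether counting used strand is not given in the sources used here.

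The neurotrophin gene Bdnf was at 22.7 and 18.6 CPM in monoculture and at 8.12 and 8.23 CPM in co-culture, a log2 change of -1.34 ± 0.18 (edgeR adjusted p = 0.0119). An antisense transcript overlaps 14.4% of its exonic bases. Nptx1, a secreted pentraxin of synapses, was at 21.1 and 18.8 CPM in monoculture and at 8.58 and 5.83 CPM in co-culture, a log2 change of -1.47 ± 0.28 (edgeR adjusted p = 0.0474). Pik3r3, a regulatory subunit of phosphoinositide 3-kinase, was at 33.4 and 42.7 CPM in monoculture and at 13.8 and 16.0 CPM in co-culture, a log2 change of -1.35 ± 0.22 (edgeR adjusted p = 0.0254). In each of these genes the higher co-culture library stayed below the lower monoculture library by a clear margin. Pik3r3 shares 22.7% of its words, mostly with the annotated model Gm49337, so its level is uncertain.

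The cell surface receptors Lrp4, through which agrin signals, and Plxnb1, which binds a semaphorin, fell by 0.94 ± 0.14 and 0.84 ± 0.14 on the log2 scale (edgeR adjusted p = 0.0148 and 0.0268). Lrp4 was at 67.9 and 71.9 CPM in monoculture and at 34.4 and 38.4 CPM in co-culture. Plxnb1 was at 96.0 and 121 CPM in monoculture and at 63.0 and 58.8 CPM in co-culture. Slitrk6, a neuronal membrane protein with leucine-rich repeats, was at 78.5 and 114 CPM in monoculture and at 48.0 and 49.3 CPM in co-culture, and fell by 0.98 ± 0.17 on the log2 scale (edgeR adjusted p = 0.0303). The monoculture libraries of Slitrk6 and Plxnb1 differed more from each other than the co-culture libraries did.

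A structural gene of myelin was among the falls. Mbp, myelin basic protein, was at 1244 and 1073 CPM in monoculture and at 632 and 557 CPM in co-culture, a log2 change of -0.96 ± 0.16 (edgeR adjusted p = 0.0254). Mbp was the only one of 21 tested glial and neural lineage genes to pass the threshold, and the list median was -0.10, with a range from -0.20 to 0.12 when 1 library was left out. Vim, Sox10 and Nes, the other members with the highest levels, were at 0.11 ± 0.18, 0.00 ± 0.16 and -0.25 ± 0.19.

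Calhm5, Cavin2, Limch1, Myl9 and Dnm3 also fell. Calhm5, of a family of large-pore membrane channels, was at 26.6 and 28.9 CPM in monoculture and at 9.94 and 10.6 CPM in co-culture, a log2 change of -1.43 ± 0.15 (edgeR adjusted p = 0.00244). Cavin2, a coat protein of caveolae, was at 67.3 and 67.9 CPM in monoculture and at 35.2 and 30.2 CPM in co-culture, a log2 change of -1.05 ± 0.14 (edgeR adjusted p = 0.00993). Limch1, which binds non-muscle myosin, was at 10.1 CPM in both monoculture libraries and at 4.29 and 3.62 CPM in co-culture, a log2 change of -1.35 ± 0.21 (edgeR adjusted p = 0.0192). The libraries of each arm lay close together in all 3 genes. Myl9, the regulatory light chain of smooth muscle and non-muscle myosin, was at 29.4 and 30.8 CPM in monoculture and at 18.8 and 15.2 CPM in co-culture, a log2 change of -0.82 ± 0.16 (edgeR adjusted p = 0.0474). Dnm3, a dynamin of membrane fission, was at 54.8 and 57.4 CPM in monoculture and at 31.7 and 31.8 CPM in co-culture, a log2 change of -0.82 ± 0.13 (edgeR adjusted p = 0.0205).

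Upstream of Myl9, a CArG box, the binding site of serum response factor, stands at chr2:156775283-156775332 on the plus strand of GRCm38, in capitals below. The sequence is shown because Myl9 was the only 1 of 22 falls with a RefSeq start site that held this motif in the 250 bases before the start, against 1.62% of all genes.
Myl9: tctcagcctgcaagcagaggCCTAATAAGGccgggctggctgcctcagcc
The TEAD letters GGAATG were found before the start of 5 of these 22 genes (Bdnf, Calhm5, Irs1, Mef2c and Plxnb1) and of 14.4% of all genes. Of 23 tested cytoskeletal targets of serum response factor, Myl9 fell and none rose in edgeR. A lower level in both co-culture libraries was seen for 12 of the 23, against 22.1% of all genes that were not BV2-high. Their median log2 change was -0.22 and ran from -0.36 to -0.13 with 1 library left out. At an unadjusted p below 0.05, 4 had a lower and 0 a higher level, against 4.59% and 3.18% of all genes that were not BV2-high. Flna, the actin crosslinker filamin A, averaged 1463 CPM in monoculture and 1136 CPM in co-culture, a log2 difference of -0.37 ± 0.22 (edgeR adjusted p = 0.692). Actb, Actg1 and Tagln2 were at 0.12 ± 0.15, 0.10 ± 0.14 and 0.39 ± 0.25.

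Of 29 tested genes of the YAP and TEAD pathway and its targets that were not BV2-high, Ccn2 fell and none rose, and the list median was 0.01. At an unadjusted p below 0.05, 7 of the 29 had a lower and 2 a higher level, against 4.59% and 3.18% of all genes that were not BV2-high. The highest members, Axl, Ccn1, Ajuba and F3, were at 0.12 ± 0.21, -0.40 ± 0.18, -0.54 ± 0.17 and 0.38 ± 0.17, and none of these 4 passed the edgeR test.

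In the extracellular matrix, 1 of 27 tested genes that were not BV2-high rose (Col16a1) and 2 fell (Col5a1 and Nid2), with a list median of -0.18. Col5a1, a chain of type V collagen, was at 77.3 and 105 CPM in monoculture and at 48.1 and 49.4 CPM in co-culture, a log2 change of -0.90 ± 0.16 (edgeR adjusted p = 0.0312). Nid2, a nidogen that links basement membrane laminin and collagen, was at 43.7 and 50.7 CPM in monoculture and at 23.5 and 24.4 CPM in co-culture, a log2 change of -0.98 ± 0.15 (edgeR adjusted p = 0.0156). The 2 collagen chains past the threshold thus moved in opposite directions. The abundant matrix genes Sparc, Col11a1, Col5a3 and Fn1 were at -0.31 ± 0.16, -0.29 ± 0.16, -0.00 ± 0.15 and 0.53 ± 0.34, and none of them passed the edgeR test. A lower level in both co-culture libraries was seen for 15 of the 27 genes, against 22.1% of all genes that were not BV2-high.

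Of the named falls left, Oca2, a melanosomal transport protein, was at 5.99 and 5.44 CPM in monoculture and at 1.62 and 1.90 CPM in co-culture, a log2 change of -1.69 ± 0.29 (edgeR adjusted p = 0.0312). Chdh, the mitochondrial choline dehydrogenase, was at 11.97 and 10.7 CPM in monoculture and at 4.74 and 4.30 CPM in co-culture, a log2 change of -1.33 ± 0.23 (edgeR adjusted p = 0.0333). The other 8 falls, outside the 20 largest, lay between -0.79 and -0.65 on the log2 scale. They were the insulin receptor substrate Irs1, the Max partner Mxd4, the catenin relative Ctnnal1, the actin-binding protein Ccdc88a, the co-chaperone Dnajb4, the transcription factor Mef2c, the focal adhesion protein Tns2 and 1 gene without an established name. Irs1 has an antisense transcript over 30.9% of its exonic bases.

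Several programmes gave no gene past the threshold. Of 31 DNA replication genes, 0 passed in edgeR, 3 had an unadjusted p below 0.05, all higher, and the median log2 change was 0.09. A positive value was seen for 25 of the 31, against 48.7% of all genes that were not BV2-high, and both co-culture libraries were higher for 15, against 20.9%. Of 30 mitosis genes, 0 passed, 2 had an unadjusted p below 0.05, both higher, and the median was 0.11, with 26 positive and 17 higher in both co-culture libraries. Pcna and Mki67, common markers of dividing cells, were at 0.09 ± 0.12 and -0.05 ± 0.19. The tested members that were not BV2-high also gave 0 calls for 20 hypoxia-response genes, 22 genes of cholesterol synthesis and uptake, 19 genes of the unfolded protein and integrated stress responses, 12 Nrf2 target genes and 15 p53 targets. Their medians were 0.14, 0.10, -0.00, 0.07 and -0.22, and 3, 2, 3, 1 and 2 of their members had an unadjusted p below 0.05. Over all genes that were not BV2-high, 3.18% had such a p with a higher level and 4.59% with a lower level. Calls were likewise 0 for 21 genes of the TGF-beta pathway, 20 matrix proteases and inhibitors, 15 growth factors and receptors, 12 myeloid ligands and checkpoint genes, 15 GL261 markers and 6 markers of other cells. Their medians were -0.16, 0.02, -0.18, 0.00, 0.07 and -0.39. At an unadjusted p below 0.05, 0, 1, 0, 1, 2 and 0 of their members were higher, against the same 3.18%. Lower were 2, 4, 2, 0, 0 and 1, against the same 4.59%, so the matrix proteases and inhibitors had the most. DESeq2 called 1 gene each, all higher, among the hypoxia-response genes, the matrix proteases, the myeloid ligands and the GL261 markers, and 0 in the other lists of this paragraph.

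**Figure D3:**
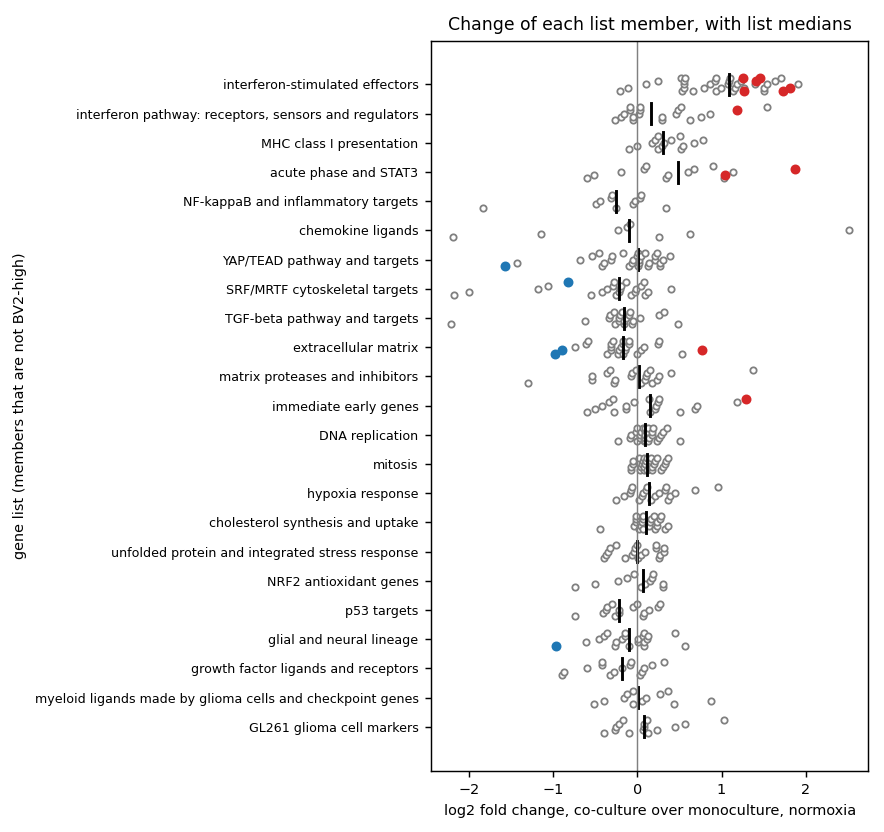
Log2 fold change in normoxia of each tested member that was not BV2-high, by gene list. Open points did not pass the adjusted threshold, filled red points rose, filled blue points fell, and black bars are list medians. The list of interferon-stimulated effectors is centred at 1.09, while most other lists are centred near 0, with the acute phase and Stat3 list at 0.48.

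The hypoxic arms, which used other libraries, gave the same direction for 40 of the 41 genes. Over all genes tested, 49.6% had a positive and 50.4% a negative value in hypoxia. All 13 rises were again higher in co-culture and 11 of them passed the threshold in hypoxia, where 0.889% of all genes tested passed as higher. Their median log2 change was 1.29 in normoxia and 1.37 in hypoxia. Serpina3n was at 39.0 and 28.9 CPM in hypoxic monoculture and at 240 and 186 CPM in hypoxic co-culture, a log2 change of 2.65 ± 0.21 (edgeR adjusted p = 0.000188). Ifit3 was at 6.83 and 7.07 CPM in hypoxic monoculture and at 26.8 and 19.8 CPM in hypoxic co-culture, a log2 change of 1.74 ± 0.18 (edgeR adjusted p = 0.00138). Igtp at 1.02 ± 0.25 (edgeR adjusted p = 0.0709) and Col16a1 at 0.61 ± 0.14 (edgeR adjusted p = 0.0526) missed the threshold there. The share of BV2 transcripts was lower in hypoxia, with 0.237% ± 0.0266 (SD, n = 2) in co-culture against 0.773% ± 0.202 (SD, n = 2) in normoxia. The median change of the interferon-stimulated effectors was 1.06 in hypoxia and 1.09 in normoxia. The 2 hypoxic co-culture libraries differed, with effector medians of 1.29 and 0.56 over the hypoxic monoculture mean on the log2 scale. A relation between the share and the effectors was not tested.

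The falls were divided. Of the 28, 27 were also lower in hypoxic co-culture and 14 passed the threshold, where 0.5% of all genes tested passed as lower. Their median log2 change was -0.97 in normoxia and -0.68 in hypoxia. Calhm5 at -2.06 ± 0.15, Limch1 at -2.03 ± 0.20, Cavin2 at -1.95 ± 0.15 and Myl9 at -1.80 ± 0.17 fell in hypoxia as well, with adjusted p-values of 0.000188, 0.00121, 0.000188 and 0.000749 in edgeR. Ccn2 fell by 1.33 ± 0.24 on the log2 scale in hypoxia (edgeR adjusted p = 0.0261), from 316 and 197 CPM to 122 and 83.0 CPM. By contrast Bdnf was at 13.3 and 14.6 CPM in hypoxic monoculture and at 10.9 and 13.1 CPM in hypoxic co-culture, a log2 difference of -0.21 ± 0.18 (edgeR adjusted p = 0.615). Nptx1 at -0.08 ± 0.29, Oca2 at -0.17 ± 0.41 and Frzb at -0.38 ± 0.39 did not pass in hypoxia either, and Oca2 was below 0.65 CPM in all 4 hypoxic libraries. Ccdc88a, with a log2 value of 0.07 ± 0.13, was the 1 gene without the same direction.

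The difference between the oxygen levels was tested as an interaction in the same fit. No gene passed in edgeR, with a lowest adjusted p of 0.344, although 1354 genes, or 8.91%, had an unadjusted p below 0.05. DESeq2 called 47 genes, of which 1 was among the 41 (Ccdc88a). Of the 41 genes, 1 rise and 13 falls had an unadjusted p below 0.05, and the lowest adjusted p among them was 0.354 in edgeR. A difference between the oxygen levels was therefore not shown by edgeR for any of the 41. The co-culture effect in GL261 also differed from that in BV2 cells of the same experiment for 16 of the 41 genes. Over all genes tested the share was 3.97%, but the 41 were chosen by their effect in GL261, which is part of that difference, so the shares are not comparable. For 9 of the 16 the level in BV2 monoculture was below 1 CPM.

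**Figure D4:**
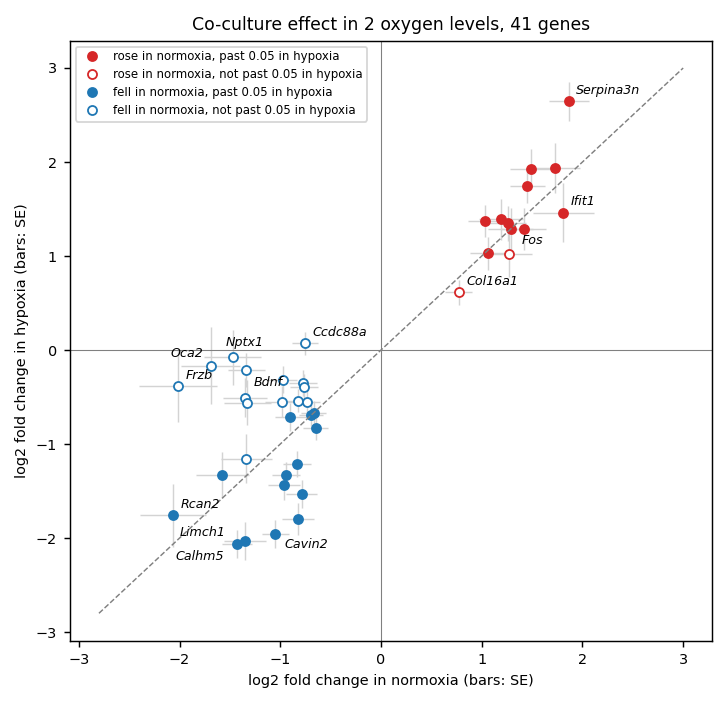
Log2 fold change on co-culture in normoxia (x axis) and hypoxia (y axis) of the 41 genes past the threshold in normoxia that were not BV2-high, with SE bars and a dashed line of equal change. Filled points also passed the threshold in hypoxia. All 13 rises lie above 0 in both, with Serpina3n above the line at 1.87 and 2.65, while among the falls Bdnf, Nptx1, Oca2, Frzb and Ccdc88a lie near 0 in hypoxia and Calhm5, Limch1, Cavin2 and Myl9 lie below the line.

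Among the 786 BV2-high genes, 36 rose, or 4.58%, and 1 fell, or 0.127%. The 4-fold rule used the same GL261 monoculture libraries as this comparison, so it favours genes with low monoculture values. Many could reach the read filter only through groups other than normoxic monoculture, the compared co-culture among them. More rises than falls were therefore favoured in advance, and no excess is read from these shares. The rises were headed by myeloid genes that GL261 monocultures hardly contained. Of the 36, 6 had 0 counts in both monoculture libraries and 32 had a monoculture mean below 1 CPM. Ccl3, a chemokine of activated myeloid cells, had 0 counts in monoculture and 5.46 and 1.97 CPM in co-culture, which is at least 22.8-fold higher when the floor of 3 counts per library is taken for monoculture. Sirpa, the myeloid receptor for Cd47, had 0 counts in monoculture and 3.70 and 3.32 CPM in co-culture, at least 21.6-fold higher. On the same floor Hcls1, a cortactin relative of blood cells, Slc24a5, a cation exchanger, Ctsc, a lysosomal protease, and Runx3, a transcription factor, were higher by bounds that ran from at least 5.87-fold for Runx3 to at least 13.1-fold for Hcls1. Hcls1, Slc24a5, Ctsc and Runx3 reached the read filter only through the normoxic co-culture, so their calls and bounds were favoured in advance. Lcp1, the plastin of blood cells, was at 0 and 0.213 CPM in monoculture and at 10.1 and 7.61 CPM in co-culture. Lpl, lipoprotein lipase, was at 0 and 0.640 CPM in monoculture and at 20.9 and 16.8 CPM in co-culture. The protease Ctss and the chemokine Ccl9 had 2 counts each in monoculture, and their co-culture to monoculture ratios were 66.1 (exact 95% counting interval 17.9 to 553) and 57.3 (15.5 to 480).

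These rises followed the level of each gene in BV2 cells. For 34 of the 36 genes the rise in plain CPM equalled 0.430% to 0.982% of the level in co-cultured BV2 cells, with a median of 0.763%. The share of BV2 transcripts measured over the 121 specific genes was 0.773% ± 0.202 (SD, n = 2), and all 34 are among those genes, so the 2 values are not independent. When that share of the BV2 level was subtracted from the co-culture counts before the fit, an alternative chosen after seeing the data, 0 of the 36 passed the threshold. Since the share comes from genes that include 34 of them, the loss of those 34 calls follows from the subtraction. The same fit kept 11 of the 41 genes that were not BV2-high past the threshold, and lost the other 30, with log2 changes of the 41 between 0.977 and 1.02 times those given above.

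The other 2 of the 36 were Gpnmb and Tor3a. Gpnmb, a transmembrane glycoprotein of lysosomes and the cell surface, was at 504 and 603 CPM in monoculture and at 999 and 1014 CPM in co-culture, a log2 change of 0.86 ± 0.15 (edgeR adjusted p = 0.0283). The measured BV2 share would add 22.3 CPM to it, against a rise of 433 CPM. Tor3a, an ATPase of the endoplasmic reticulum, was at 16.7 and 11.4 CPM in monoculture and at 30.4 and 25.5 CPM in co-culture, a log2 change of 0.99 ± 0.19 (edgeR adjusted p = 0.0469). The share would add 0.511 CPM, against a rise of 13.5 CPM. Both genes lay near the limit that defines BV2-high, at 5.97-fold and 4.07-fold. Under the subtraction their log2 changes were 0.84 and 0.98, with edgeR adjusted p-values of 0.0603 and 0.0956. The tested genes closest to that limit were Irak2 and Inpp5j just under it and Pfkp and Uchl5 just over it, with log2 changes of -0.47, -0.37, -0.05 and 0.22, none past the threshold.

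Hdac9, a class IIa histone deacetylase and BV2-high by 6.77-fold, was the 1 gene of the 786 that fell. It was at 5.73 and 7.74 CPM in monoculture and at 1.37 and 1.35 CPM in co-culture, a log2 change of -2.30 ± 0.29 (edgeR adjusted p = 0.00900). Both co-culture libraries were far below both monoculture libraries. In hypoxia its log2 change was -1.92 (edgeR adjusted p = 0.0109), and in BV2 cells it averaged 47.4 CPM in monoculture and 17.9 CPM in co-culture. All 20 tested markers of microglia and macrophages were BV2-high, and 8 of them rose.

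**Figure D5:**
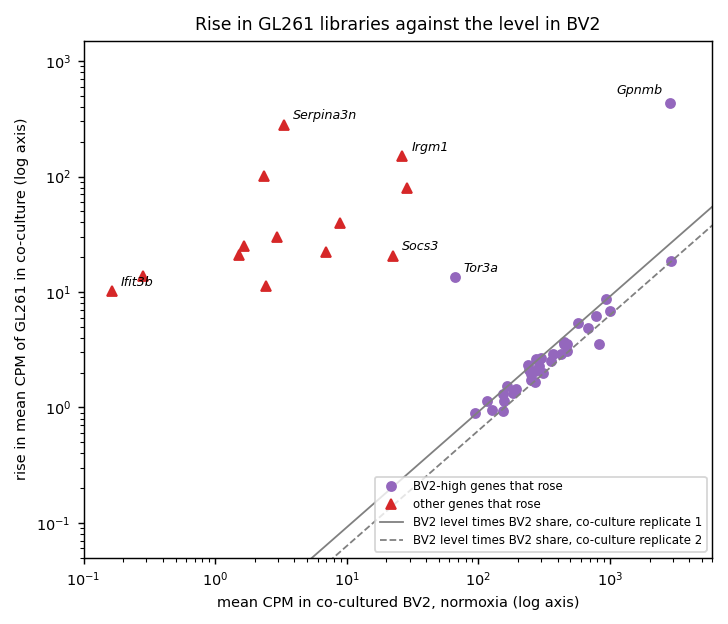
Rise in mean plain CPM of GL261 on co-culture (y axis, log scale) against the mean plain CPM in co-cultured BV2 cells (x axis, log scale). Circles are the 36 BV2-high genes that rose, triangles the 13 other genes that rose, and the lines show the BV2 level times the BV2 share of each co-culture library, 0.915% and 0.630%. The circles follow the lines except Gpnmb and Tor3a, and the triangles lie far above them.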

How the data were processed

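The authors deposited raw read counts per Ensembl gene. The submitters' processing notes name Trimmomatic 0.36, STAR 2.6, Picard 2.17.1, SAMtools, HTSeq 0.9.1, deepTools and the mm10 build, with no role or order. Per the labels' protocols, glyoxal-fixed cells gave stranded poly(A) libraries read as 151-base pairs. How GL261 and BV2 cells were separated is not given in the sources used here. A symbol was found for 55141 gene identifiers. The 8 GL261 libraries were fitted together with a mean per group in edgeR 4.0.16 (R 4.3.3), using TMM factors and its filter at a minimum count of 10 and total of 15, and the quasi-likelihood F test with Benjamini-Hochberg adjustment over all genes tested. The SE of a log2 change is its size over the square root of F. BV2 levels, BV2 shares and the 4-fold rule use plain CPM. Genes specific to BV2 had at least 20 CPM in BV2 monoculture and were at least 100-fold above GL261 monoculture at both oxygen levels, with 0.5 CPM added.

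Named genes were, with over 40 genes past the threshold, the 20 largest rises and falls that were not BV2-high, the 10 largest BV2-high rises and every BV2-high fall. Members of lists were named if past the threshold or among the 4 highest in level. Genes with systematic names were counted only. Of the 20 largest falls, 1 is not reported here. Gene lists, tests and alternatives were chosen with earlier results of these data known. The fit was checked on simulated counts. No replicate pair was identical.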

Additional observations from a re-analysis of the deposited data

Results flagged for a closer look

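The co-culture effect was also compared between GL261 and BV2 cells of the same experiment, as an interaction over all 16 libraries. Of the 41 genes described above, 16 passed an adjusted p of 0.05 in edgeR, 3 of the 13 rises and 13 of the 28 falls. The 41 were chosen by their effect in GL261, so no excess over other genes is read from this. The log2 effect in GL261 minus that in BV2 was -4.98 for Serpina3n, -1.51 for Col16a1 and 0.96 for Irgm1 among the rises. Among the falls it was -7.18 for Slitrk6, -6.51 for Cavin2, -6.44 for Nid2, -5.49 for 1 gene with a systematic name, -5.47 for Myl9, -5.19 for Plxnb1, -4.33 for Col5a1, -2.19 for Mbp, -1.75 for Tns2, -1.46 for Pik3r3, -1.14 for Mxd4, -0.89 for Ccdc88a and -0.73 for Dnajb4.

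Transcripts of GL261 cells were present in the co-cultured BV2 libraries, at a median of 0.760% ± 0.271 (SD, n = 2) of the GL261 level over 230 genes. In BV2 monoculture the value was 0.00661%. Genes specific to GL261 cells are low there by definition, so no contrast is read from it. For 9 of the 16 genes BV2 monoculture was below 1 CPM, and the rise in BV2 cells equalled 0.716% to 1.43% of the GL261 co-culture level. Their differences ran from -7.18 to -1.51, and the part of GL261 reads in them was not tested. The other 7 genes were above 1 CPM in BV2 monoculture. Mbp went from 3.29 to 7.59 CPM in BV2 cells on co-culture, and Tns2 from 1.12 to 2.41 CPM. These rises equalled 0.721% and 0.625% of the GL261 co-culture level, and the part of GL261 reads in them was not tested either. Pik3r3 was at 2.95 CPM in BV2 monoculture and 3.12 CPM in co-cultured BV2 cells. Irgm1 was at 21.9 CPM in BV2 monoculture and 26.5 CPM in co-cultured BV2 cells, Ccdc88a at 109 and 118 CPM, Dnajb4 at 33.8 and 32.9 CPM, and Mxd4 at 22.3 and 27.9 CPM. Mef2c, which fell by 0.70 in GL261 on the log2 scale, also fell in BV2 cells, by 0.82.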

How the results depend on the processing

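In edgeR, 78 genes passed in all. The count was 162 with DESeq2, 266 with no filter beyond 1 count, 11 with a mean of at least 5 CPM, 124 with only the 4 libraries compared, 13 with BV2-high genes removed before the fit, 12 with BV2 carry-over subtracted and 1 to 15 with 1 library left out. In the same order, rises that were not BV2-high (13) numbered 42, 62, 5, 31, 6, 6 and 0 to 4, and falls (28) numbered 78, 116, 5, 47, 7, 5 and 0 to 6. BV2-high rises (36) numbered 87 with no filter, 1 at 5 CPM, 0 after subtraction and 1 to 11 with 1 library left out. The 1 BV2-high fall became 0 at 5 CPM or with BV2-high set at 10-fold, 2 at 2-fold and 0 to 1 with 1 library left out. Interferon-stimulated effectors past the threshold (6) numbered 16 with DESeq2, 24 with no filter, 3 at 5 CPM, 15 with only the 4 libraries and 0 to 3 with 1 library left out. Acute phase and Stat3 genes (2) numbered 4, 5 and 1 with DESeq2, no filter and 5 CPM, 1 after removal of BV2-high genes, 1 after subtraction and 0 to 1 with 1 library left out. The interaction with oxygen gave 47 genes with DESeq2. The labels do not tie same-numbered libraries to one culture. Their deviations correlated by 0.278 in the arms compared and by 0.0422 to 0.522 over 6 pairs of groups, so the numbers were not taken to pair the libraries. With a replicate block, 226 genes passed, of which 59 rises and 96 falls were not BV2-high and 70 were BV2-high rises, with 25 effectors and 5 acute phase genes. With the replicate block in only the 4 libraries compared, these were 1050, 353, 563, 128, 31 and 7, and BV2-high falls were 6. The 41 genes that were not BV2-high kept their direction under each alternative that tested them, and all 41 calls were kept with DESeq2, no filter and the block. The BV2 share in hypoxic co-culture was 0.271% with genes chosen at 30-fold and 0.294% against co-cultured BV2. In normoxic monoculture it was 0.104% at 30-fold and 0.0136% at 300-fold, and in hypoxic monoculture 0.0629%, 0.0115% and, against co-cultured BV2, 0.0423%. After subtraction Lpl (-5.57), Hspb7 (-0.79) and Xist (-7.32) reversed, which follows from removing more reads than the share left in them. At 5 CPM, genes with a lower mean, such as Hdac9, Ccl3 and Sirpa, were left out of the test. With BV2-high set at 10-fold, Hdac9, at 6.77-fold, counts as not BV2-high. The cause of the other shifts was not tested. With 1 library left out, the lone library of its arm was assumed to vary like the other groups.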

Other observations

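Gfap, the intermediate filament gene of astrocytes and a member of the acute phase and Stat3 list, averaged 9.93 CPM in monoculture and 20.4 CPM in co-culture in normoxia, a log2 difference of 1.03 ± 0.23 that missed the threshold in edgeR (adjusted p = 0.0991), and rose by 1.20 on the log2 scale in hypoxia (adjusted p = 0.0380). It was named after its values were seen.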
